A study of Mus musculus with 217 samples.

Results

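The genes described here are 28 genes of cholesterol synthesis, of its control by sterol regulatory element binding proteins (SREBPs), and of cholesterol transport, storage and efflux inside the cell. They were taken as a list of symbols, and all 28 were found among the 53619 gene names of the count tables, so no symbol is missing. By role they are 7 genes of the mevalonate branch, 3 of squalene and lanosterol formation, 8 of the steps between lanosterol and cholesterol, 5 of SREBP control, and 5 of intracellular transport, storage and efflux.

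The samples came from female mice given resveratrol at 30 mg per L of drinking water with DMSO, or DMSO alone, from 2 months of age. Granulosa cells of the C57BL6/129 background formed 6 groups of 3 pools each. These were 10-month-old Tet2 knockout-labelled mice on resveratrol, 10-month-old knockout-labelled controls, 2-month-old knockout-labelled controls, 10-month-old wild-type mice on resveratrol, 10-month-old wild-type controls and 2-month-old wild-type controls. Single metaphase II (MII) oocytes of the same background, 171 in all, came from the same 6 kinds of mice and from 6-month-old mice of both genotypes with and without resveratrol, which makes 10 groups of 14 to 20 oocytes. A separate set from C57BL6 mice with no genotype label held 10 oocytes of 10-month-old resveratrol-treated mice, 6 of 10-month-old controls, 11 of 6-month-old controls and 1 oocyte whose labels contradict each other. Granulosa cells were taken from large follicles after gonadotropin priming alone, and the oocytes after priming and an ovulatory dose of hCG, so cell type and hormonal stage cannot be told apart. The labels name no animal for any library. The p-values for granulosa pools therefore measure the spread between these pools, which may be technical. Those for oocytes and for the cell types come from group sums. They measure how far the sums depart from the fitted model and not the spread between single oocytes.

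Cholesterol is built from acetyl-CoA through mevalonate, isoprenoid diphosphates, squalene and lanosterol. When membrane sterol is low, SCAP carries SREBPs from the endoplasmic reticulum to the Golgi, where they are cut to release transcription factors that switch on most genes of the pathway; INSIG proteins hold SCAP back when sterol is plentiful. Granulosa cells use cholesterol as the substrate of steroid hormones, and mouse oocytes are known for a weak cholesterol synthesis of their own and for receiving cholesterol products from the surrounding cumulus cells.

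Promoter windows of 4 members are shown that had opposite directions in the comparison between granulosa cells and oocytes described below. Hmgcs1 and Msmo1 did not stand at the ends of that comparison. Hmgcs1 and Insig1 were among the most abundant members in oocytes per kilobase of exon, Msmo1 was several times higher in granulosa pools, and Mvk was close to absent from oocytes. The sequences are the 250 bases before the transcription start in RefSeq (build GRCm38.p6), written 5′ to 3′ on the strand of the gene. They lie at chr13:119690101-119690350 (+ strand) for Hmgcs1, chr5:28071162-28071411 (+ strand) for Insig1, chr8:64733579-64733828 (- strand) for Msmo1 and chr5:114444019-114444268 (+ strand) for Mvk. In the GENCODE annotation (release M21) Msmo1 begins at base 64733792 and Insig1 at base 28071363. Most of the Msmo1 window and the end of the Insig1 window thus lie inside the gene by that annotation. Capitals mark TCACNCCA, the core of a sterol regulatory element, and CCAAT, the box bound by the NF-Y factor that commonly accompanies it, on either strand (reverse complements TGGNGTGA and ATTGG); no base belonged to both.
Hmgcs1: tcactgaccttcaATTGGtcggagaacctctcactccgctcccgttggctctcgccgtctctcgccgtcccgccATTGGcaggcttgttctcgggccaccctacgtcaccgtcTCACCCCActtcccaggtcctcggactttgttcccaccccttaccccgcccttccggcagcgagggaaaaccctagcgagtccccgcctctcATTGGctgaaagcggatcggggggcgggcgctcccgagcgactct
Insig1: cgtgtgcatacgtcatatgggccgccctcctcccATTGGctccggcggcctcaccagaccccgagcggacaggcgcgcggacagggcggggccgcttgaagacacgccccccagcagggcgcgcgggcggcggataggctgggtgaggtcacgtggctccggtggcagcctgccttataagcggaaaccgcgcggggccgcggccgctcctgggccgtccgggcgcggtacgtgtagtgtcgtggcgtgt
Msmo1: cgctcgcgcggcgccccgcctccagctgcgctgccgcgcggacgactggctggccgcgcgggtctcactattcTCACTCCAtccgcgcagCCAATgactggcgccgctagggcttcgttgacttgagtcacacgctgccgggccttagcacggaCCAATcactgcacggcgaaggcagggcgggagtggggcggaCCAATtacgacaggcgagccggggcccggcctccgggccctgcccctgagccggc
Mvk: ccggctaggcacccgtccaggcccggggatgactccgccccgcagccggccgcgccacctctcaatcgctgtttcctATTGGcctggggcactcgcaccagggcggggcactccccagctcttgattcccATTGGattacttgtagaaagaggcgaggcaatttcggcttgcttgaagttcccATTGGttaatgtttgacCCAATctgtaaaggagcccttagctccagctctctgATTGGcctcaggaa
RefSeq held 31 promoter windows for 23 of the 28 members. TCACNCCA occurred in the windows of 3 of these genes (Hmgcs1, Msmo1 and Srebf2), that is in 9.68% of the member windows, against 3.67% of all 32851 windows. CCAAT occurred in the windows of 20 of the 23 genes, in 67.7% of the member windows, against 33.8% of all windows. The Hmgcs1 window held 1 TCACNCCA and 3 CCAAT matches and the Msmo1 window likewise 1 and 3, whereas the Mvk window held 5 CCAAT matches and the Insig1 window 1. The matches are a description of these letters, and high and low members in oocytes both carried CCAAT.

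Library totals were 5995491 to 20537935 counts in the 12 old granulosa pools but 470647 to 749172 in 5 of the 6 young pools. The remaining young pool, knockout-labelled pool 2, had 11595710. Apart from that pool, age and depth therefore coincide in granulosa cells. Totals were 3386039 to 8775154 in C57BL6/129 oocytes and 3470831 to 11358927 in C57BL6 oocytes. Tet2 averaged 14.9 ± 4.06, 15.6 ± 5.13 and 11.8 ± 4.17 CPM (read counts scaled to a fixed library total) in the old resveratrol, old control and young knockout-labelled pools, against 14.6 ± 2.01, 11.6 ± 1.63 and 8.08 ± 3.82 CPM in the matching wild-type pools (SD, n = 3 each). The transcript was thus no lower under the knockout label, and gene counts alone do not check a deletion of part of a gene, so these pools are called knockout-labelled. In the summed oocytes Tet2 lay at 0.96 to 1.4 CPM in the 5 knockout groups and 2.36 to 3.19 CPM in the 5 wild-type groups. The 13 granulosa markers took 0.226% to 0.677% of counts in the pools, and the 13 oocyte markers 0.876% to 3.43% of counts in the oocytes. A list of 6 red blood cell markers took 0.000212% to 0.760% of counts in the pools. Its median was 0.382% in old wild-type control pools and 0.00879% in young wild-type pools, and none of the 5 tested was called between these groups. The part of this list in the sterol gene differences was not tested. Oocyte markers took 0.00935% to 0.0266% of counts in young wild-type pools and no more than 0.0007% in old pools. In young knockout-labelled pools they ran from 0.000112%, below every old pool, to 0.0155%.

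The gene set was divided between the cell types. Granulosa pools carried transcripts of every step of the pathway, whereas oocytes held some steps abundantly and others near 0. Farnesyl diphosphate synthase (Fdps) and the sterol isomerase Ebp were 479 and 84.5 times higher in granulosa pools, and mevalonate kinase (Mvk), phosphomevalonate kinase (Pmvk) and the cholesterol exporter Abca1 were without a count in most oocytes, while Insig1, Npc1 and Fdft1 were 22.3, 13.8 and 7.87 times higher in oocytes. In the test of summed libraries of the 6 groups present in both cell types, 19 members were higher in granulosa cells (44.4% of all genes were), 8 were lower (42.8%) and Idi1 was not called (edgeR quasi-likelihood test with the group as a block, Benjamini-Hochberg adjusted p under 0.05). Of all 24670 genes tested, 87.2% were called, so that a call in itself does not set the members apart, and their levels are given instead. The median log2 difference of the members was 2.66, against 0.13 over all genes. Scaling matters here: with library totals in place of trimmed mean of M values (TMM) factors, the median of all genes moved up by 0.79 on the log2 scale.

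In the mevalonate branch 5 of the 7 genes were higher in granulosa pools, Hmgcs1 was lower and Idi1 was not called. Hmgcs1, whose enzyme makes HMG-CoA, was abundant in both cell types, with 108 to 216 CPM in the 18 pools (median 182) and 171 to 602 CPM in the 171 oocytes (median 314). Its ranges overlapped, and the fitted log2 difference, granulosa minus oocyte, was -1.69 ± 0.19 (SE; adjusted p = 4.22e-06, edgeR). Mvk stood at 23.4 to 90.8 CPM in pools and at 0 to 3.37 CPM in oocytes, where 147 of 171 oocytes had no count. Oocytes with a count numbered 12 in 6-month knockout controls, 7 in 6-month knockouts on resveratrol and at most 3 in any other group. Pmvk stood at 26 to 90.2 CPM in pools and at 0 to 1.6 CPM in oocytes, with no count in 118 oocytes. At these depths 3 counts correspond to 0.342 to 0.886 CPM, so most single oocytes lay below what a library can resolve. The summed libraries gave log2 differences of 9.12 ± 0.56 for Mvk and 8.18 ± 0.48 for Pmvk (edgeR, adjusted p = 1.10e-08 and 6.54e-09); 3 of the 6 oocyte sums held no Mvk count and 1 held no Pmvk count, so both fitted values depend on the prior count and are no measure of the fold.

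Mvd, which decarboxylates mevalonate diphosphate, followed the same division, with a median of 38.1 CPM in pools and 0.449 CPM in oocytes (log2 difference 5.69 ± 0.30). Acat2, the cytosolic thiolase that begins the branch, had medians of 87.5 CPM in pools and 1.14 CPM in oocytes (5.40 ± 0.22), although reads from its near-identical neighbour Acat3 could have been split between both genes. Fdps, the most abundant member in pools per kilobase of exon, stood at 1084 to 2622 CPM, against 0 to 66.2 CPM in oocytes with a median of 3.00 CPM (log2 difference 8.90 ± 0.28, adjusted p = 1.48e-10, edgeR). Every pool lay above every oocyte for these genes. Idi1, the isomerase between Mvd and Fdps, did not follow them: it had 44.3 to 189.9 CPM in pools and 41.9 to 120.0 CPM in oocytes, with overlapping ranges (log2 difference -0.24 ± 0.22, adjusted p = 0.310, edgeR). Its sign turned under library totals, to 0.57 (adjusted p = 0.0165, edgeR).

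The later steps were divided in the same way. Squalene synthase (Fdft1), which commits farnesyl diphosphate to sterols, was 124.6 to 291 CPM in pools and 189.9 to 2064 CPM in oocytes (log2 difference -2.98 ± 0.19). Its exons overlap those of Ctsb in the annotation, so its reads are uncertain. Fdps, which makes its substrate, had the opposite direction. Squalene epoxidase (Sqle) had medians of 106 CPM in pools and 8.65 CPM in oocytes. Lanosterol synthase (Lss) was low in both, at 27.4 and 8.68 CPM (log2 difference 0.54 ± 0.19, adjusted p = 0.0180, edgeR), and lost its call with relative log expression (RLE) factors, at an adjusted p of 0.0730 (edgeR). After lanosterol, 6 of the 8 genes were higher in granulosa pools: the demethylase Cyp51 (170 against 5.57 CPM, medians), the sterol reductase Tm7sf2 (65.8 against 1.55 CPM), the methyl oxidase Msmo1 (506 against 64.7 CPM), the decarboxylating dehydrogenase Nsdhl (119 against 9.90 CPM), the isomerase Ebp (91.0 against 0.496 CPM) and the final reductase Dhcr7 (160.5 against 5.67 CPM). Hsd17b7 and Sc5d were lower in granulosa cells, with medians of 62.1 CPM in pools and 125.6 CPM in oocytes for Hsd17b7, and 112 and 339 CPM for Sc5d.

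Among the SREBP regulators the pair of INSIG genes had opposite directions. Insig1 had 41.5 to 104 CPM in pools and 246 to 1581 CPM in oocytes, without overlap (log2 difference -4.48 ± 0.25, adjusted p = 4.14e-09, edgeR). Insig2 had 38.1 to 87.9 CPM in pools and 0.673 to 13 CPM in oocytes, also without overlap (3.33 ± 0.17, adjusted p = 1.78e-09, edgeR). Scap was 2.42 times lower in granulosa cells. Srebf2, the SREBP most tied to sterol genes, was 1.94 times higher in granulosa cells, and Srebf1, more tied to fatty acid genes, was 1.99 times lower; the Srebf2 call was lost with the 4 old groups only (log2 difference 0.61, adjusted p = 0.0587, edgeR), and the Srebf1 call with library totals (log2 difference -0.19, adjusted p = 0.587, edgeR).

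Transport genes were divided too. The lysosomal cholesterol carriers act together, NPC2 handing sterol to the membrane protein NPC1, yet Npc2 was 368 to 787 CPM in pools and 19.6 to 79.1 CPM in oocytes, whereas Npc1 was 17.6 to 47.1 CPM in pools and 18.4 to 449 CPM in oocytes. Exons of Npc1 overlap those of Rmc1. Soat1, the esterifying enzyme that stores cholesterol, was 1135 to 2110 CPM in pools and 36.8 to 215 CPM in oocytes. Abca1 was 30.7 to 104.5 CPM in pools and had no count in 125 oocytes. Stard4, a soluble sterol carrier, had medians of 24.3 CPM in pools and 5.97 CPM in oocytes.

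**Figure D1:**
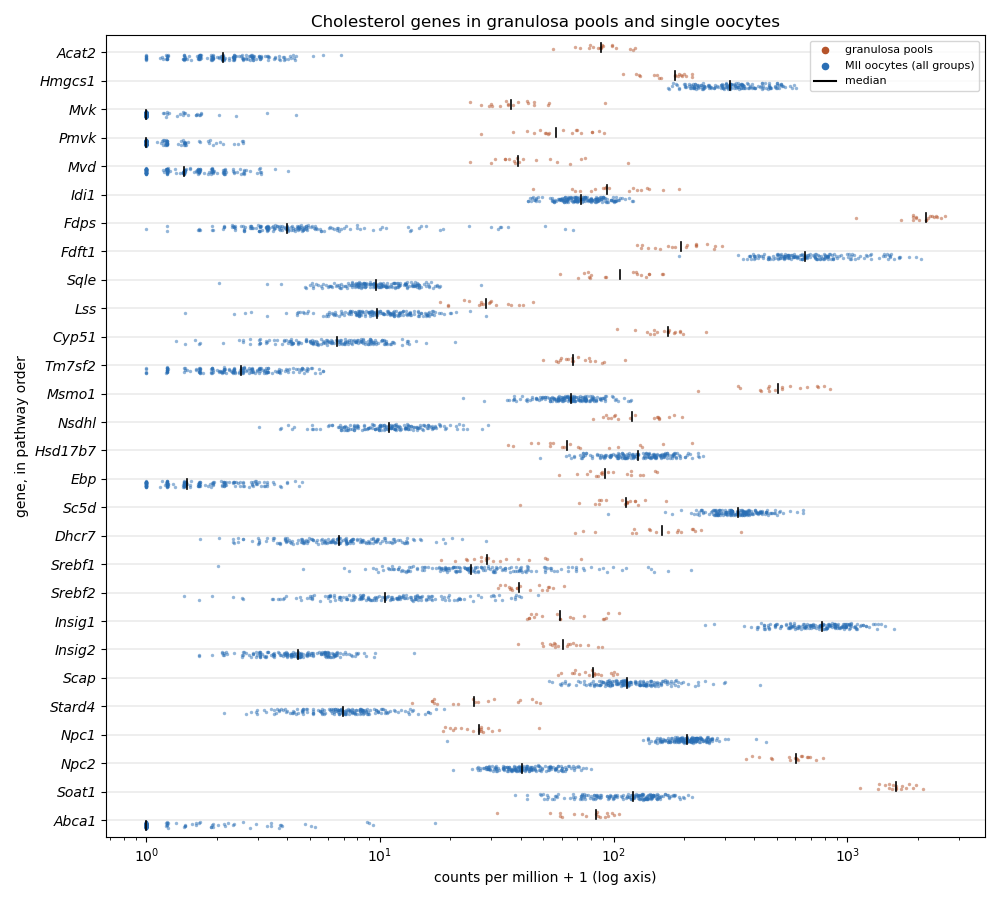
Level of each member (CPM + 1, log axis) in 18 granulosa pools and 171 MII oocytes, listed in pathway order, with 1 point per library and a black line at the median. The lowest pool lies at 1084 CPM and the highest oocyte at 66.2 CPM for Fdps, while every oocyte lies above every pool for Insig1.

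In plain CPM the 18 pools lay above all 171 oocytes for 16 members and below them for 1, Insig1, against 15.7% and 11.2% of all genes. With TMM factors, over the 97 oocytes of the 6 shared groups, the same comparison gave 16 and 4 members (Hmgcs1, Fdft1, Sc5d and Insig1), against 12.7% and 15.6% of all genes. The plain CPM overlaps of Npc1 and Fdft1 came from the 2-month knockout oocytes alone, with lows of 18.4 and 189.9 CPM. In every other oocyte group the lowest values were at least 132 and 339 CPM, above the highest pools at 47.1 and 291 CPM. Per kilobase of exon, the leading members in pools were Fdps (516 CPM per kb, medians), Soat1 (165) and Npc2 (111). In oocytes they were Insig1 (252), Fdft1 (156) and Sc5d (69.6). Of a further list of 31 cholesterol genes, 20 were higher and 8 lower in granulosa cells, and of 12 SREBP-related fatty acid genes 9 were higher and 3 lower.

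Within old control granulosa pools, 4 members rose under the knockout label and none fell. They were the sterol carrier Stard4 and the sterol enzymes Ebp, Nsdhl and Msmo1, 3 of the 8 genes between lanosterol and cholesterol. Of all 17558 genes tested, 2.83% were higher and 1.03% lower, so 4 of 28 members higher (edgeR, adjusted p under 0.05) stands above the share over all genes, as a description of this list. There were 11 members at an unadjusted p under 0.05, against 17.6% of all genes. In all, 23 of 28 members had a positive log2 difference, with a median of 0.37, against 0.06 over all genes and 54.3% positive.

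Stard4 had 44.9, 40.1 and 31.4 TMM-scaled CPM in old knockout-labelled control pools, against 14.9, 14.3 and 18.9 in old wild-type control pools (log2 difference 1.27 ± 0.26 SE, adjusted p = 0.00659, edgeR). Ebp (chromosome X, 8185329 to 8193512, GRCm38) had 157, 136 and 119.8 CPM under the knockout label and 72.7, 79.4 and 80.9 CPM in wild type (0.82 ± 0.17, adjusted p = 0.00722, edgeR). Nsdhl (chromosome X, 72918557 to 72958514) had 186, 179.6 and 129 CPM under the knockout label and 96.0, 84.8 and 92.4 CPM in wild type (0.86 ± 0.19, adjusted p = 0.0137, edgeR). For Stard4, Ebp and Nsdhl every knockout-labelled pool lay above every wild-type pool. Msmo1 (chromosome 8, 64718139 to 64733792) had 865, 836 and 557 CPM under the knockout label and 391, 421 and 392 CPM in wild type, also without overlap (0.91 ± 0.25, adjusted p = 0.0439, edgeR).

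Other members lay in the same direction without passing the test. Sqle had a log2 difference of 0.91 (adjusted p = 0.0752, edgeR), Acat2 0.59 (0.0752), Insig1 0.78 (0.0767), Fdft1 0.72 (0.106) and Pmvk 0.67 (0.107). The 3 knockout-labelled pools lay above the 3 wild-type pools for 13 members and below them for 2 (Insig2 and Scap), against 16.7% and 11.1% of all genes. Of the 31 further cholesterol genes, 3 rose and 1 fell. Among them the lipoprotein Apoe had a log2 difference of 2.89 ± 0.77 and the HDL receptor Scarb1 of -0.93 ± 0.22. Apoe stood far higher in 1 pool than in the others, with 22.2, 32.3 and 351 CPM under the knockout label and 20.8, 16.3 and 18 CPM in wild type. Of the 12 fatty acid genes 1 rose, the desaturase Scd1 (0.85 ± 0.20).

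Several other marker lists moved with this comparison. The 17 macrophage markers summed to 0.130% to 0.167% of counts in the old knockout-labelled control pools and 0.0122% to 0.0173% in the old wild-type control pools, 13 of the 16 tested were higher, and none of the 17 was at 0 in either group. The 7 luteal markers summed to 0.607% to 0.655% under the knockout label and 1.05% to 1.27% in wild type, with 2 lower and none at 0, and the 4 cumulus markers to 0.121% to 0.297% and 0.123% to 0.139%, with 1 higher and none at 0. Of the 13 granulosa markers 1 was lower. The part of these lists in the sterol gene differences was not tested, and in pools fewer cells of a type and less RNA per cell cannot be told apart. The Msmo1 call was lost with RLE factors (adjusted p = 0.0585, edgeR), and thinning to 1 depth ended the calls of Msmo1, Ebp and Stard4 (adjusted p = 0.139, 0.137 and 0.109, edgeR). Leaving out wild-type control pool 1 or 2 ended all 4 calls. Leaving out knockout-labelled control pool 1 or 2 left 1, and leaving out wild-type control pool 3 left 2. Without the 5 shallow young pools, which share the estimate of spread, 8 members were called. Over all genes, 185 to 954 were called with 1 pool left out and 150 to 1284 in the other alternative fits.

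**Figure D2:**
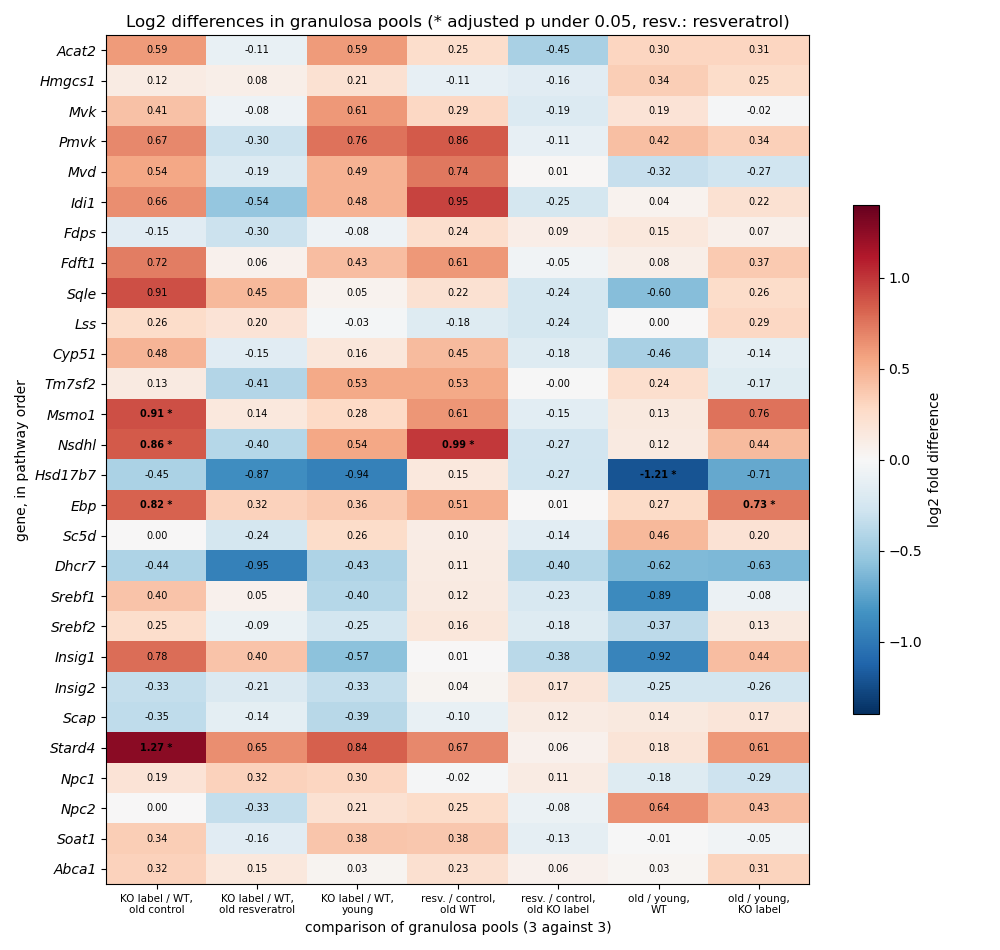
Log2 differences of the 28 members, in pathway order, in 7 comparisons of 3 granulosa pools against 3, coloured from blue (lower) to red (higher), with an asterisk at an adjusted p under 0.05 (edgeR). The columns for the knockout label in old controls and for resveratrol in old wild type are mostly red, with 23 and 24 of 28 members above 0.

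In old wild-type pools 1 member, Nsdhl, rose on resveratrol, and 24 of 28 members had a positive log2 difference. Nsdhl had 213, 166 and 163 CPM in resveratrol pools and 96.0, 84.8 and 92.4 CPM in control pools (log2 difference 0.99 ± 0.19 SE, adjusted p = 0.0231, edgeR), without overlap. This call of 1 in 28 compares with 1.17% of all genes higher and 0.456% lower. There were 10 members with an unadjusted p under 0.05, against 16.9% of all genes. The members' median was 0.24, against 0.01 over all genes, of which 51.1% were positive. All 8 genes between lanosterol and cholesterol were above 0, with a median of 0.48, whereas the 5 SREBP control genes had a median of 0.04. Pmvk had 98.2, 73.6 and 76.3 CPM in resveratrol pools and 46.2, 43.2 and 47.1 CPM in control pools, a log2 difference of 0.86 that did not pass the test (adjusted p = 0.0551, edgeR). Idi1 had 177, 150.1 and 127 CPM in resveratrol pools and 84.8, 85.9 and 65.1 CPM in control pools, a log2 difference of 0.95 that did not pass either (adjusted p = 0.106, edgeR). The 3 resveratrol pools lay above the 3 control pools for 13 members and below them for none, against 17.6% and 13% of all genes. No gene of the 31 further cholesterol genes or of the 12 fatty acid genes was called, with 4 and 0 at an unadjusted p under 0.05 and lowest adjusted p-values of 0.179 and 0.351 (edgeR). The 17 macrophage markers summed to 0.0219% to 0.0381% of counts in resveratrol pools and 0.0122% to 0.0173% in control pools. Of the 16 tested, 6 were higher, and none was at 0. Of the 7 luteal markers 1 was higher, with sums of 1.13% to 1.24% in resveratrol pools and 1.05% to 1.27% in control pools. The part of these lists was not tested. Leaving out any 1 of the 6 pools ended the Nsdhl call, with adjusted p-values of 0.0615 to 0.149 (edgeR). These pools and the knockout-label comparison above use the same 3 old wild-type control pools.

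Resveratrol had no called member in old knockout-labelled pools, where 5 of all genes (0.0285%) were called; 1 member had an unadjusted p under 0.05, against 3.52% of all genes, and DESeq2 called none. Of the members, 8 lay above 0 and 20 below, with a median of -0.15; 51.0% of all genes lay above 0. The lowest p-values belonged to Acat2, with 78.5, 97.5 and 84.5 CPM in resveratrol pools and 125.7, 123 and 107 CPM in control pools (log2 difference -0.45 ± 0.19, unadjusted p = 0.0237 and adjusted p = 1.00, edgeR), followed by Insig1 (-0.38) and Dhcr7 (-0.40). The difference between both resveratrol effects was tested as an interaction. It was below 0 for 25 of 28 members, with a median of -0.47 against -0.03 over all genes, of which 48.0% lay above 0. No member passed (0.159% of all genes did), 7 members had an unadjusted p under 0.05 (8.01% of all genes), and DESeq2 called 1. Apart from fits leaving out 1 pool, the alternative fits called 0 to 252 genes. Nsdhl came nearest, at -1.26 ± 0.27 (adjusted p = 0.0621, edgeR; 0.00780 with DESeq2), then Idi1 at -1.19 and Pmvk at -0.97.

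**Figure D3:**
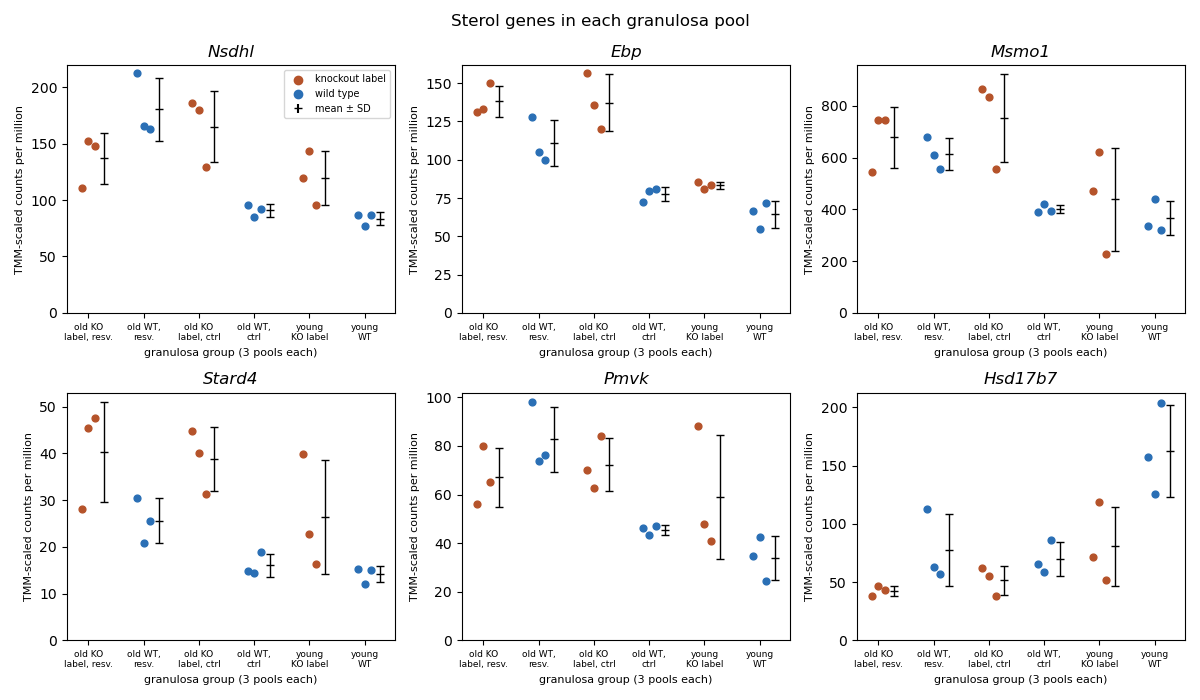
TMM-scaled CPM of 6 members in each of the 3 pools of the 6 granulosa groups, with the mean and SD beside the points. Old wild-type control pools (84.8 to 96.0 CPM) and young wild-type pools (76.9 to 87.0 CPM) are low for Nsdhl. Both old resveratrol wild-type pools and old knockout-labelled control pools lie above them, whereas Hsd17b7 is highest in young wild-type pools.

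Knockout-labelled and wild-type pools on resveratrol differed in no member at old age (edgeR, adjusted p under 0.05), with 1.07% of all genes called and 3 members at an unadjusted p under 0.05, against 10.3% of all genes. Dhcr7 had 74.5, 118 and 82.6 CPM under the knockout label and 135, 199.7 and 197 CPM in wild type (log2 difference -0.95, adjusted p = 0.115, edgeR), without overlap. Hsd17b7 followed at -0.87 and Stard4 at 0.65. In young pools no member was called either (0.114% of all genes; 6 members at an unadjusted p under 0.05, against 10.8%), and Hsd17b7 (-0.94), Acat2 (0.59) and Pmvk (0.76) had the lowest p-values. DESeq2 called no member in these 2 comparisons.

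With age, 1 member changed in each genotype. Hsd17b7, a 3-ketosteroid reductase, fell in old wild-type pools: it had 65.7, 58.3 and 86.5 CPM in old pools and 158, 125.4 and 204 CPM in young pools (log2 difference -1.21 ± 0.30, adjusted p = 0.0406, edgeR). Of all genes, 0.843% were higher and 0.683% lower. Ebp rose in old knockout-labelled pools, with 157, 136 and 119.8 CPM in old pools and 85.4, 81.2 and 83.3 CPM in young pools (0.73 ± 0.18, adjusted p = 0.0187, edgeR), where 4.09% of all genes were higher and 1.08% lower. The ranges did not overlap for either gene. At an unadjusted p under 0.05 there were 6 members in wild type and 7 under the knockout label, against 16% and 19.4% of all genes. The old wild-type pools lay above the young for 5 members and below for 4, against 23.8% and 8.01% of all genes. Of the further cholesterol genes, the lysosomal lipase Lipa fell with age under the knockout label (log2 difference -0.84 ± 0.24). The difference in age effect between labels was called for no member (0.137% of all genes; 1 member, Insig1, at an unadjusted p under 0.05, against 7.66% of all genes; DESeq2 called none). With all pools thinned to the shallowest depth neither age call remained, the Hsd17b7 call was lost without any 1 of the 6 pools, and the Ebp call was lost without old pool 1, old pool 2 or young pool 3, at adjusted p-values of 0.133, 0.0805 and 0.0715 (edgeR). It was also lost with RLE factors, with no filter, without the shallow pools and with only the groups compared, at adjusted p-values of 0.0543, 0.0717, 0.0863 and 0.287 (edgeR).

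Marker lists moved with age as well. In old knockout-labelled control pools the 17 macrophage markers summed to 0.130% to 0.167% of counts with none at 0, against 0.00457% to 0.0884% with 1 at 0 in young knockout-labelled pools, and 6 of the 16 tested were higher. Of the 13 oocyte markers, 9 were tested and 5 were lower with age under the knockout label; 6 were at 0 in the old and 2 in the young pools. Of the 13 granulosa markers 1 was higher and 2 were lower, and 2 of the 7 luteal markers were lower. In wild type, 3 of the 9 oocyte markers tested were lower with age, and the luteal markers summed to 1.05% to 1.27% of counts in old pools and 0.644% to 0.727% in young pools, with none called. The part of these lists in the Hsd17b7 and Ebp differences was not tested.

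In oocytes no member passed the test for age, genotype or resveratrol (edgeR on 10 group sums, adjusted p under 0.05), and few genes did at all: 0.00481% for 10 against 2 months, 0% for 6 against 2 months, 0.00481% for 10 against 6 months, 0.139% for knockout against wild type and 0% for resveratrol. Members at an unadjusted p under 0.05 numbered 4, 2, 4, 4 and 0 in that order, against 13.5%, 9.16%, 16.6%, 12.9% and 1.74% of all genes. DESeq2 called 1, 0, 3, 1 and 0 members, and its share of all genes is not given here. Over all genes, the alternative fits with no group left out called 1 to 2213, 0 to 629, 1 to 2846, 8 to 1507 and 0. For the change of the resveratrol effect with genotype, 0% of genes and no member were called, 1 member had an unadjusted p under 0.05 (2.57% of all genes) and DESeq2 called none; the lowest p-values belonged to Idi1 (0.56), Mvd (-1.17) and Dhcr7 (-0.64).

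Srebf2 had the lowest p-value for old against young oocytes. Its sums were 20.4, 18.7, 7.58 and 20.3 CPM in the 10-month knockout resveratrol, knockout control, wild-type resveratrol and wild-type control groups, and 11 and 3.63 CPM in the 2-month knockout and wild-type groups. The wild-type resveratrol group lay between both 2-month sums, and the other 10-month sums lay above them. Among single oocytes of wild-type controls it had a lowest, median and highest level of 0.449, 2.88 and 8.44 CPM at 2 months, 5.10, 9.92 and 15.1 CPM at 6 months and 7.74, 18 and 46.6 CPM at 10 months. The additive fit gave a log2 difference of 1.58 ± 0.40 for 10 against 2 months (adjusted p = 0.184, edgeR; 0.00272 with DESeq2) and 0.88 ± 0.29 for 10 against 6 months (adjusted p = 0.192, edgeR; 0.0451 with DESeq2). Resveratrol groups were below their controls for Srebf2 in wild type at both ages, at 5.84 against 10.5 CPM at 6 months and 7.58 against 20.3 CPM at 10 months, and not in knockout oocytes at 10 months, and the fitted difference was -0.60 ± 0.29 (adjusted p = 1.00, edgeR).

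Insig1 was at 566 to 788 CPM in the 10-month sums and at 952 and 1018 CPM in the 2-month sums, without overlap (log2 difference -0.49 ± 0.18, adjusted p = 0.284, edgeR). Soat1 was 155, 130.0, 119.8 and 112 CPM in the 10-month sums in the same order and 107 and 62.4 CPM in the 2-month sums (0.69 ± 0.27, adjusted p = 0.307, edgeR). Fdft1 was 814 to 1077 CPM in the 10-month sums and 554 to 685 CPM in the 6-month sums without overlap (0.57 ± 0.13, adjusted p = 0.113, edgeR; 0.0148 with DESeq2). Srebf1 was variable between oocytes: in 2-month knockout oocytes it ran from 1.02 to 214 CPM with a median of 73.7 CPM, and in 2-month wild-type oocytes from 11.9 to 56.0 CPM with a median of 29.0 CPM. For 6 against 2 months it had a fitted log2 difference of -1.26, which turned to 0.28 without the 2-month knockout group; Lss followed at -0.48.

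Scap, the SREBP escort, had the lowest p-value for genotype. Its sums were 69.2, 98.3, 109, 106 and 110.0 CPM in the 5 knockout groups, and 129.6, 144, 175, 166 and 129.8 CPM in the 5 wild-type groups, so all knockout sums lay below all wild-type sums (log2 difference -0.60 ± 0.12, adjusted p = 0.0882, edgeR; 0.00272 with DESeq2). Single oocytes of the groups overlapped, at 51.9 to 193 CPM in knockout and 60.9 to 423 CPM in wild type. Exons of Scap overlap a predicted transcript, 5830462I19Rik, in the annotation.

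Fdps was raised in single groups rather than by genotype or age as a whole. Its sums were 10.0 and 17.9 CPM in the 6-month knockout resveratrol and knockout control groups and 2.04 to 3.7 CPM in the other 8 groups. Single oocytes reached 49.9 and 66.2 CPM in those 2 groups, against 9.04 CPM at most in the other 131 oocytes. The same 2 groups had the highest sums of the 4 cumulus markers, at up to 52.4 and 176 CPM, against at most 14.2 CPM elsewhere, and none of the 4 was at 0 in them. The 13 granulosa markers reached 146 and 259 CPM in those groups, with 1 and none of them at 0, and at most 119.9 CPM elsewhere. The 7 luteal markers reached 224 and 447 CPM, against at most 118.6 CPM elsewhere, and the 17 macrophage markers 378 and 434 CPM, against at most 230.1 CPM elsewhere, with none of either list at 0 in those groups. Fdps is the most abundant member in granulosa pools, and the part of these marker lists in its level was not tested. Its fitted log2 difference was 1.33 ± 0.51 for 6 against 2 months, -1.62 ± 0.39 for 10 against 6 months and 0.89 ± 0.35 for knockout against wild type (adjusted p = 0.514, 0.119 and 0.325, edgeR). For 10 against 6 months Fdps was called by DESeq2 (adjusted p = 0.000572) and with no filter (adjusted p = 0.0326, edgeR). With any 1 of the 10 groups left out it was not called there (lowest adjusted p = 0.0941, edgeR). After Srebf2, Cyp51 (-0.38) and Sc5d (-0.19) had the lowest p-values for resveratrol.

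**Figure D4:**
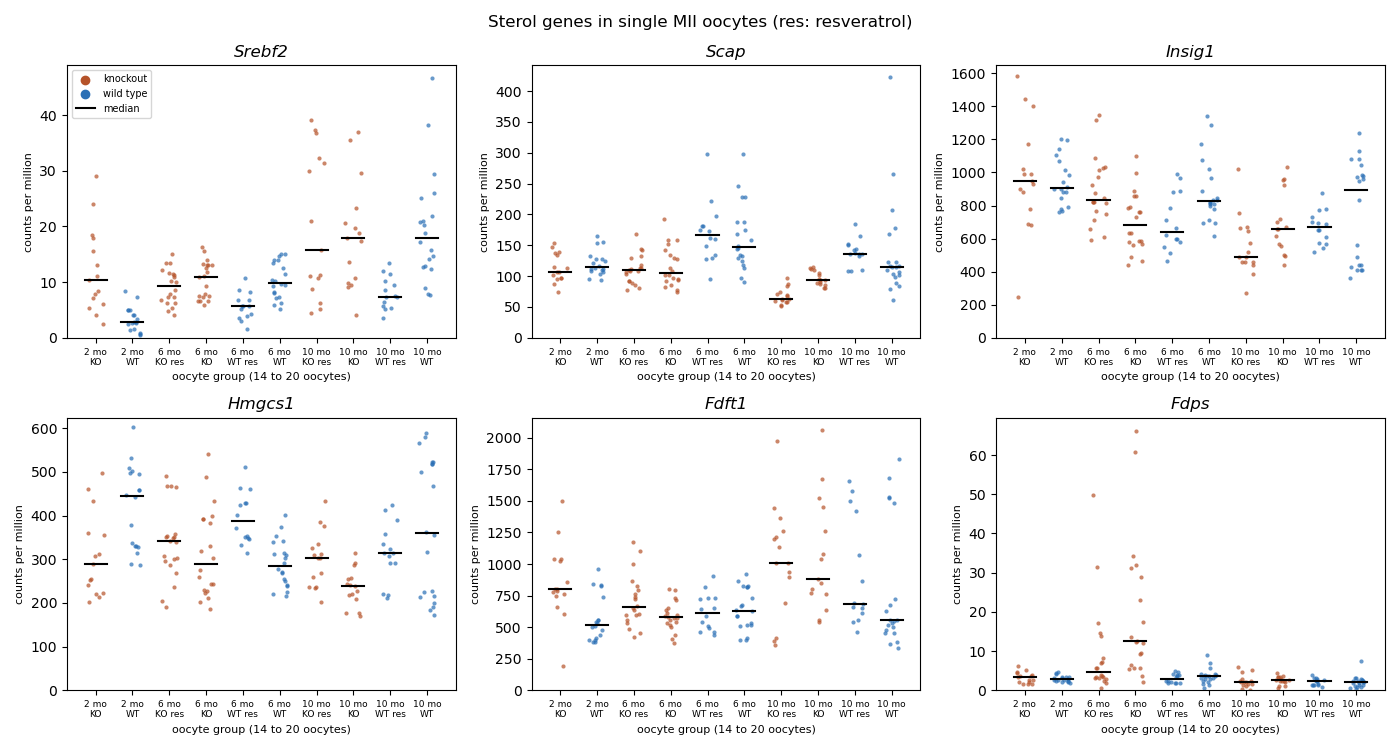
CPM of 6 members in single MII oocytes of the 10 groups, ordered by age, with 1 point per oocyte and a black line at the median. Srebf2 is lowest in 2-month wild-type oocytes, Scap is lowest in 10-month knockout resveratrol oocytes, and Fdps stands out in the 6-month knockout groups.

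In C57BL6 oocytes each group was 1 sum, since no animal is named, so ratios carry counting intervals and no p-value. For 10-month against 6-month controls, 19 members reached 5 CPM in the higher sum, and 1 rose and 1 fell by 2-fold or more, against 7.76% and 2.2% of the 9365 genes at that level. Nsdhl was 9.27 CPM in the 10-month sum and 4.47 CPM in the 6-month sum (log2 ratio 1.05, 95% interval 0.80 to 1.31, exact and for counting error only). Srebf2 was 7.25 CPM in the 10-month sum and 25.4 CPM in the 6-month sum (log2 ratio -1.80, 95% interval -2.0 to -1.62). Single oocytes had 4.99 to 11.4 CPM of Srebf2 at 10 months and 10.6 to 49.8 CPM at 6 months, which overlap slightly. In C57BL6/129 wild-type controls the sums ran the other way, with 20.3 CPM at 10 months and 10.5 CPM at 6 months; the difference between backgrounds was not tested. Insig1 was 309 CPM at 10 months and 556 CPM at 6 months (log2 ratio -0.85).

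For resveratrol against control at 10 months, none of the 17 members at 5 CPM changed by 2-fold, against 0.989% higher and 0.426% lower among 9399 genes. The largest ratios belonged to Npc2, with 64.2 CPM on resveratrol and 44.1 CPM in control (log2 ratio 0.54, 0.46 to 0.62), Stard4 with 5.26 and 7.10 CPM (-0.43, -0.67 to -0.20) and Srebf1 with 35.6 and 46.0 CPM (-0.37, -0.46 to -0.28). Npc2 had 47.7 to 99.2 CPM in the 10 resveratrol oocytes and 36.3 to 48.8 CPM in the 6 control oocytes. The Npc2 ranges overlapped by about 1 CPM, while those of Stard4 and Srebf1 overlapped widely. With the contradictory oocyte placed by its treatment tag, as a control, the Npc2 ratio was 0.39. That oocyte had 82.7 CPM of Npc2, inside the range of the resveratrol oocytes, so the near separation depends on its label. The Srebf1 ratio was -0.28 with the contradictory oocyte placed by its title, -0.56 from the mean CPM per oocyte and -0.68 without 1 resveratrol oocyte whose column name can be read as either of 2 titles.

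**Figure D5:**
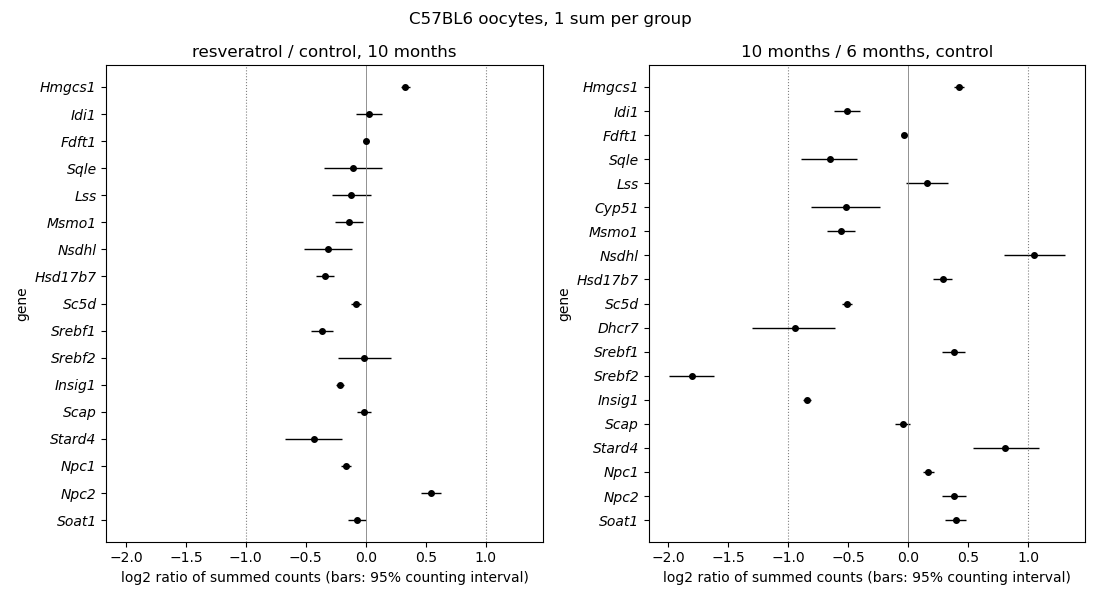
Log2 ratio of summed counts in C57BL6 oocytes for members with at least 5 CPM in the higher sum, with resveratrol over control at 10 months on the left and 10 over 6 months in controls on the right. Bars are 95% counting intervals and dotted lines mark a 2-fold ratio, which only Nsdhl and Srebf2 pass, both in the comparison of ages.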

How the data were processed

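Smart-seq2 libraries of granulosa pools and single oocytes were sequenced as paired reads. The deposited tables hold raw read counts per gene; the authors used HISAT2 2.1.0, featureCounts and DESeq2 with mm10, per the submitters' processing notes. The strand setting, annotation release and handling of shared reads are not given in the sources used here, and the exons of 10 of the 28 members overlap another gene in GENCODE (release M21), Fdft1 with Ctsb among them. The labels give different cell numbers per pool.

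Counts were tested with edgeR 4.0.16 (R 4.3.3; TMM factors, filterByExpr with a minimum count of 10, quasi-likelihood, Benjamini-Hochberg adjustment over all genes). The 18 pools entered 1 model of 6 groups (17558 genes, 12 residual degrees of freedom). Oocytes were summed per group, giving 10 sums with age, genotype and treatment as terms (20806 genes, 5 degrees), since no animal is named. Cell types were compared over 12 sums with group as a block (24670 genes, 5 degrees). In C57BL6 oocytes a call was a 2-fold ratio at 5 CPM, with 0.5 added to each count. Levels are TMM-scaled CPM for granulosa comparisons and oocyte sums, and plain CPM per library total for single oocytes, C57BL6 oocytes and the cell types; lengths are exon unions.

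Every member is given between cell types; in other comparisons every called member was named, or the 3 with the lowest p (in C57BL6 oocytes the largest ratio) where none was called. Some genes of the further lists are not reported here. Members and lists were chosen with earlier results of these data known. The 2-month wild-type oocytes carry a contradictory genotype tag, and their titles were followed; 1 C57BL6 oocyte with contradictory labels entered no group, and 1 column named ambiguously was placed by its group only. No replicates were identical, and all pairs differed by more than sampling noise (chi-square per degree of freedom at least 2.15). The tests were tried on simulated data with known changes. Alternatives were RLE factors, no filter, DESeq2 1.42.0, a replicate block, fewer groups, thinning, leaving out libraries, other weights and, added after seeing the data, 26 oocyte sums by the first number in the column names, whose meaning is not given.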

Additional observations from a re-analysis of the deposited data

Results flagged for a closer look

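Sqle in old C57BL6 oocytes on resveratrol: 1 of the 10 oocytes had 12.1 CPM, against 3.3 to 7.21 CPM in the other 9, a gap to its neighbour of 0.554 of the whole range. Chance flags about 1 in 20 such sets of oocytes, and 1 of 34 sets examined was flagged.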

How the results depend on the processing

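The counts of called members depended on the fit in most comparisons, and so did the counts over all genes. Apart from fits leaving out 1 library, 182 to 936 genes were called for old against young wild-type pools. Under the knockout label it was 104 to 1310. Resveratrol in old wild type gave 25 to 1783 genes, and the label in old controls 150 to 1284. On resveratrol the label gave 55 to 616. The share of all genes in each single fit is not given here. For old against young wild-type pools 1 member was called, against 3 with DESeq2, 2 with no filter on low counts, 6 with only the groups compared, and 0 with the replicate block (Hsd17b7 adjusted p = 0.0528, edgeR) or with pools thinned to 1 depth. For old against young knockout-labelled pools 1 was called, against 0 with RLE factors, with only the groups compared or thinned, and 2 with no filter or without the 5 shallow pools. For resveratrol in old wild type 1 was called, against 3 with DESeq2 or without the shallow pools, 2 with no filter and 7 with only the groups compared. For the knockout label in old controls 4 were called, against 1 with thinned pools, 8 without the shallow pools and 9 with only the groups compared. On resveratrol, knockout-labelled against wild-type pools gave 2 with no filter and 1 with only the groups compared, in place of 0, and the change of the resveratrol effect with the label gave 1 with DESeq2, without the shallow pools, with no filter or with only the groups compared, in place of 0.

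In oocytes DESeq2 called 1, 3 and 1 members for old against young, old against middle and knockout against wild type, in place of 0. The 26 sums by column number called 3, 4 and 2. No filter called 1 for old against middle and 1 for knockout against wild type. Over all genes, the alternative fits with no group left out called 1 to 2213, 1 to 2846 and 8 to 1507 in these comparisons. In C57BL6 oocytes resveratrol gave 2 members at a minimum of 1 CPM in place of 0, and old against middle gave 6 at 1.5-fold and 1 with the contradictory oocyte placed by its treatment tag, in place of 2. Leaving out 1 library at a time gave 0 called members for old against young wild-type pools and 0 to 4 under the knockout label. It gave 0 for resveratrol in old wild type and 0 to 1 for the label in young pools. The label in old controls gave 0 to 4. Over all genes these fits called 60 to 120, 343 to 1397, 3 to 80, 8 to 118 and 185 to 954 in that order. Each interaction gave 0 to 1 members, among 4 to 51 genes with resveratrol and 14 to 58 with age. The cell types gave 26 to 27, among 20521 to 21190 genes.

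The sign of Idi1 between cell types turned to 0.57 with library totals and 0.19 thinned, and Srebf1 for middle against young oocytes ran from -2.26 without the young wild-type group to 0.28 without the young knockout group; the cause was not tested. Replicate numbers did not pair the pools: the correlations of same-numbered deviations ran from -0.41 to 0.30, and the replicate block moved no other count of called members by over 1.5 times. Of the counts over all genes, the label in old controls ran from 150.0 to 1284 around 678, and oocyte genotype from 8 to 1507 around 29, apart from fits that left out 1 library or group, where they ran from 185 to 954 and from 0 to 85. Depth limits the 5 shallow pools and single oocytes, where scarce members such as Mvk were near the limit that 3 counts allow.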

Other observations

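The C57BL6 oocytes entered no comparison with granulosa pools. Over these 28 oocytes Sc5d had a median of 193 CPM, Fdft1 of 1077 CPM, Insig1 of 360.2 CPM and Fdps of 2.62 CPM, against 339, 658, 778 and 3.00 CPM over the 171 oocytes of C57BL6/129 mice; the sets differ in background, age and table, and the differences were not tested.

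The C57BL6 oocyte that the title and the treatment tag put in different groups had 82.7 CPM of Npc2 and 3.54 CPM of Srebf2.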
